A study of Mus musculus with 6 samples.

Results

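Receptors for glutamate, the main excitatory transmitter of the brain, were followed in whole mouse brains with heterozygous or homozygous deletion of Mphosph8 in the nervous system. The 32 genes encode subunits of the ionotropic AMPA, NMDA, kainate and delta receptors, metabotropic glutamate receptors and the auxiliary proteins that sit beside the AMPA and kainate channels. They were taken from a list of gene symbols matched to the identifiers of the count files through the GENCODE M21 annotation, and all 32 were found among 54532 gene identifiers. The rule used gene names and no measured value, but the list was drawn up with earlier results of these data known. RNA was sequenced from whole brains of C57BL/6J mice at postnatal day 14, from 3 control brains with the genotype Mphosph8fl/+ Nestin-Cre+ and 3 brains with the genotype Mphosph8fl/fl Nestin-Cre+, called Mphosph8 mutant here. Both groups carried the Cre transgene, which is driven by Nestin and acts in the nervous system, so vessels, blood and microglia keep the gene. The labels thus give the controls 1 floxed allele, whereas the study's text names only their transgene, and the labels were followed. By these labels Cre also removes 1 allele in the nervous system of the controls. The comparison is therefore of heterozygous with homozygous deletion, without a wild-type group. The comparison asks whether the receptor genes differ between the genotypes, and whether the balance of juvenile and mature subunits does.

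AMPA receptors are tetrameric channels that carry most of the fast excitatory current, and the GluA2 subunit encoded by Gria2 decides whether the channel passes calcium. NMDA receptors pair the obligatory GluN1 subunit with GluN2 or GluN3 subunits, and the forebrain shifts after birth from GluN2B towards GluN2A, while the cerebellum gains GluN2C. GluN3A, GluN2D, the auxiliary protein TARP gamma-4 and mGlu5 are likewise known as more abundant in the young brain. TARP and cornichon proteins carry AMPA receptors to the surface and slow their closing, and Neto proteins do this for kainate receptors. Metabotropic receptors signal through G proteins, with group I at the postsynaptic side and groups II and III mostly on terminals and glia.

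The stretch that sets the calcium permeability of AMPA and kainate channels is shown first, since the share of Gria2 among the AMPA subunits was the value in which the groups did not overlap. Each line gives 60 bases of the spliced transcript that encode the pore, read from the GRCm38 genome through GENCODE M21 and written in the direction of the gene, with the codon of the Q/R site in capitals. In living neurons an adenosine of this codon in Gria2, Grik1 and Grik2 transcripts is edited, which exchanges glutamine for arginine.
Gria1: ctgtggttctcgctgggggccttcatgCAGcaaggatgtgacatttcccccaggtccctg
Gria2: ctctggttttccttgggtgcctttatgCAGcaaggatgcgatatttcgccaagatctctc
Gria3: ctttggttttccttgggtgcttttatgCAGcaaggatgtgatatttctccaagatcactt
Gria4: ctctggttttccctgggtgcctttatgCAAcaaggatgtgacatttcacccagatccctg
Grik1: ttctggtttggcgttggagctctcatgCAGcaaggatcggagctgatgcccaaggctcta
Grik2: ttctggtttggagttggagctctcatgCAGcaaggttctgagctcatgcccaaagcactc
The codons lie at chr11:57243094-57243096 in exon 11 of 16 of Gria1 on the plus strand, chr3:80706911-80706913 in exon 11 of 16 of Gria2 on the minus strand and chrX:41610265-41610267 in exon 11 of 16 of Gria3 on the plus strand. Those of Gria4 (chr9:4464137-4464139, exon 12 of 17), Grik1 (chr16:87940542-87940544, exon 12 of 17) and Grik2 (chr10:49244329-49244331, exon 13 of 17) are on the minus strand. Among the 4 AMPA genes the stretches differ at 6 bases (Gria2 and Gria3) to 13 bases, Grik1 and Grik2 differ at 7 bases, and an AMPA and a kainate stretch differ at 21 to 24 bases. All 6 genomic codons read as glutamine. Gene counts do not show which base the transcript carries, so editing was not analysed here, and Adarb1, which encodes the enzyme known to edit this site, had a log2 difference between genotypes of 0.013.

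The libraries held between 12956880 and 15223424 counts. Mphosph8 was lower in the mutant libraries, at 33.1, 27.2 and 26.5 CPM (counts scaled to a common library size) against 55.8, 48.6 and 70.7 CPM in the controls (log2 fold change -1.02 ± 0.12, SE, adjusted p = 0.000157, edgeR's quasi-likelihood test). Of the 12 lists of cell type and region markers examined, each was detected in every library, and the summed levels of the mutant and control libraries overlapped in all but oligodendrocyte markers. Those 8 genes summed to 25295, 25839 and 21576 CPM in the controls and 19850.2, 19330.3 and 17129 CPM in the mutants, with 2 of the 8 lower at an adjusted p under 0.05 in edgeR's test, and their part in the results on receptors was not tested. The neuron markers summed to 2576 to 2815 CPM in the controls and 2461 to 2630.2 CPM in the mutants, and those of cerebellar granule cells to 1041 ± 67.2 and 1044 ± 0.169 CPM (SD, n = 3 each). Control replicate 3 alone held reads of Y-linked genes (3641 counts, against 0 or 1 elsewhere). Its Xist count was 27, against 11130 to 17697 in the other libraries. By these counts control replicate 3 was male and the other brains were female, so the groups were not balanced for sex. The part of sex in the results was not tested.

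No glutamate receptor gene or auxiliary gene passed the test between the genotypes. All 32 genes had enough counts to be tested, and 0 had an adjusted p under 0.05 with edgeR's quasi-likelihood test, DESeq2 or limma-voom, whereas 0.628% of the 16731 genes tested in the edgeR fit did (105 genes, 89 of them higher in the mutant). At an unadjusted p under 0.05, edgeR gave 3 of 32 genes (9.38%), all with higher values in the mutant, against 6.51% of all genes tested. With limma-voom 2 of the 32 did so, against 6.57% of the same genes tested. DESeq2 gave 2 of the 32, against 2.43% of the 32272 genes in its fit. Those genes were not filtered for low counts, so the share from DESeq2 is not comparable with the other shares. The edgeR count was 0 without control replicate 2 (5.29% of all genes in that fit), 1 without control replicate 3 (5.87%), 1 without mutant replicate 3 (4.6%) and 6 without mutant replicate 2 (7.97%). In no gene did the 3 mutant values all lie above or all lie below the 3 control values, while this held for 6.23% of all genes tested in the upward and 5.42% in the downward direction. In whole brain, fewer cells that express a receptor and less RNA per cell cannot be told apart.

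The size of the differences was bounded. Log2 fold changes ran from -0.23 for Grm8 to 0.23 for Cacng2, with 18 positive and 14 negative, and their median was 0.055 against -0.0073 over all genes tested. For 31 of the 32 genes the 95% interval lay within a 1.5-fold change in either direction (96.9%, against 74.3% of all genes tested and 98.1% of those with a mean of at least 10 CPM). The exception was Grin3b, whose 16 to 27 counts per library left an interval of -0.54 to 0.68. The median distance from an estimate to the end of its interval was 0.19 on the log2 scale.

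**Figure D1:**
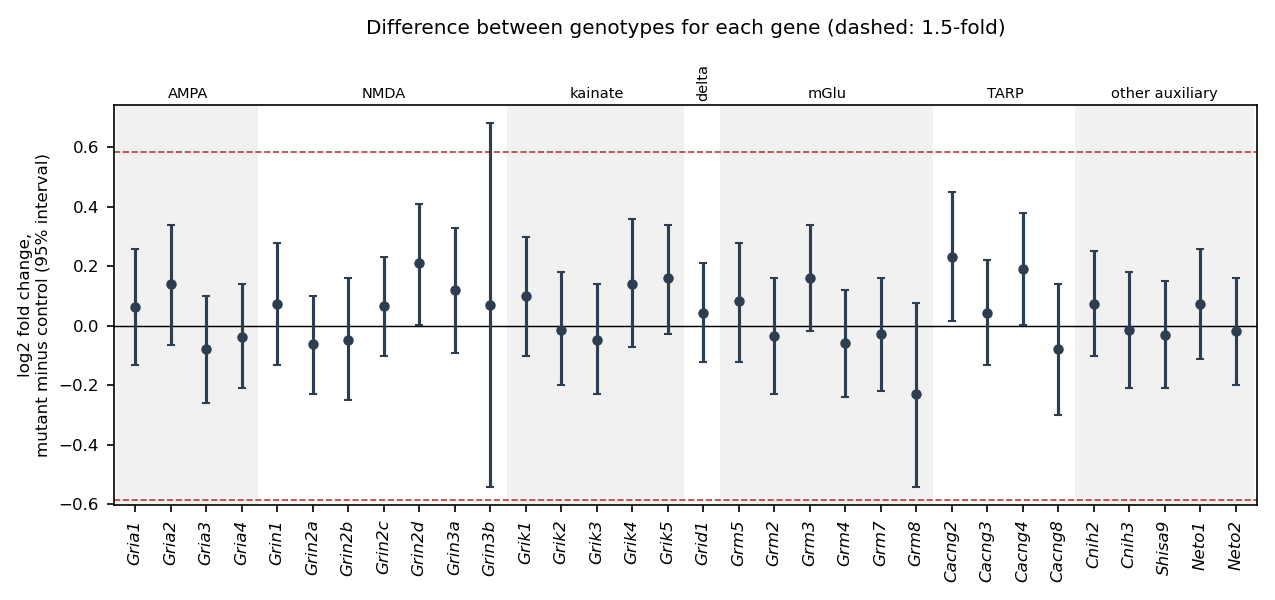
Log2 fold change of each of the 32 genes, mutant minus control, from edgeR's fit over 3 control and 3 mutant libraries, with points for the estimates and bars for 95% intervals, grouped by receptor family. The dashed lines mark a 1.5-fold change, and of the intervals only that of Grin3b crosses one.

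All 4 AMPA receptor subunits were abundant, and the genotypes overlapped in each of them. Gria1, which encodes GluA1, was at 416, 438 and 454 CPM in the controls and 504, 431 and 434 CPM in the mutants. Mutant replicate 1 was the highest of the 6 libraries and the other two mutant libraries lay within the control range (log2 fold change 0.065 ± 0.09, SE, adjusted p = 0.968, edgeR). Gria2 was at 673, 724 and 806 CPM in the controls and 858, 773 and 791 CPM in the mutants. The highest control library lay above 2 of the mutant libraries, so the groups overlapped (0.14 ± 0.10, 95% interval -0.065 to 0.34, adjusted p = 0.908, edgeR). Gria3, on the X chromosome, was at 124, 136 and 149 CPM against 122, 133 and 133 CPM in the mutants, with a log2 fold change of -0.079 that was -0.0088 without control replicate 3 and -0.14 without control replicate 1. Gria4 was at 208, 209.8 and 240.4 CPM in the controls and 219.6, 217 and 205 CPM in the mutants, with a log2 fold change of -0.037. For both genes control replicate 3 was the highest library of all 6.

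Levels can be ranked between genes only per length, here as CPM per kilobase of the gene's joined exons. In the controls Gria1 stood at 72.2 ± 3.16, Gria2 at 47.2 ± 4.31, Gria4 at 34.8 ± 2.9 and Gria3 at 13.8 ± 1.27 CPM per kb (SD, n = 3 each), and neighbours in this order were apart in all 6 libraries. With the length of the longest coding transcript in place of the joined exons, Gria1 and Gria2 came closer, at 78.6 and 70.8 CPM per kb, and their values over the 6 libraries overlapped. The order of the AMPA subunits was the same in the mutants.

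**Figure D2:**
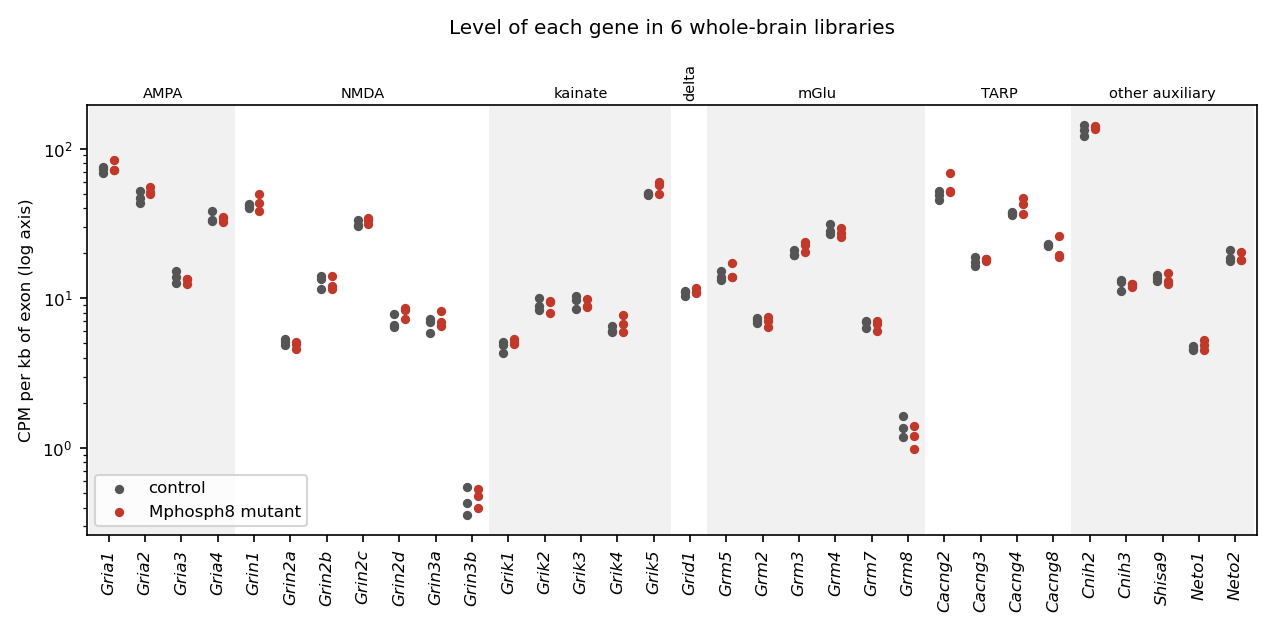
Level of each gene in the 3 control and 3 mutant libraries, as CPM per kb of joined exons on a log axis, grouped by receptor family, with a point for each library. Cnih2 stands highest, with a control mean of 132 CPM per kb, Grin3b lowest, at 0.443, and the points of both genotypes overlap for every gene.

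Set against the other AMPA subunits of the same library, Gria2 gave groups that did not overlap. The ratio of Gria2 to the sum of Gria1, Gria3 and Gria4, in counts per kb, was 0.379, 0.39 and 0.404 in the controls and 0.423, 0.417 and 0.432 in the mutants. Every mutant library was thus above every control library, with means of 0.391 ± 0.0126 and 0.424 ± 0.00728 (SD, n = 3 each) and a log2 difference of 0.12. The exact two-sided permutation test gave p = 0.1, the smallest that 3 against 3 libraries allow, and p = 0.6 after adjustment over the 6 ratios examined, so the difference did not pass. As a share of all 4 subunits, Gria2 made up 27.5%, 28.0% and 28.8% in the controls and 29.7%, 29.4% and 30.2% in the mutants. Leaving out any library kept the log2 difference of the ratio between 0.1 and 0.14.

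The obligatory NMDA receptor subunit was the most abundant of its family and showed no difference that passed. Grin1 was at 390.5, 404 and 413 CPM in the controls and 481, 369 and 419.8 CPM in the mutants (log2 fold change 0.073, 95% interval -0.13 to 0.28). The mutant libraries held both the highest and the lowest value of the 6. The ratio of Grin1 to the sum of the GluN2 genes, per kb of joined exons, was 0.731 ± 0.0169 in the controls and 0.741 ± 0.0627 in the mutants (SD, n = 3 each; exact permutation p = 0.9). With the length of the longest coding transcript it was 1.55 and 1.57. Whether Grin1 exceeds the GluN2 genes together thus depends on the length used. The ratio of all AMPA to all NMDA subunits was 1.59 ± 0.0763 and 1.59 ± 0.0833 (exact permutation p = 1).

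For Grin2a and Grin2c, subunits known as mature, the values of the genotypes overlapped within each gene. Grin2a was at 87.8, 90.9 and 96.2 CPM in the controls and 89.1, 92.1 and 82.3 CPM in the mutants. The mutant values lay on both sides of the lowest control (log2 fold change -0.061 ± 0.079, SE, adjusted p = 0.962, edgeR). Of the 50-base words in Grin2a transcripts, 11.6% also occur in transcripts of other genes, so its counts are less certain than those of the other genes, where this share was at most 0.842%. Grin2c, the cerebellar subunit, was at 169, 155 and 154 CPM in the controls and 169, 158 and 174 CPM in the mutants, with overlapping groups and a log2 fold change of 0.068.

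The 3 juvenile NMDA subunits gave estimates of both signs, and none passed the test. Grin2b was at 285, 351 and 332 CPM in the controls and 351, 285 and 301 CPM in the mutants, which is nearly the same range in another order. Its log2 fold change was -0.046 ± 0.10 (SE, 95% interval -0.25 to 0.16, adjusted p = 0.984, edgeR). Grin3a was at 71.5, 85.8 and 88.8 CPM in the controls and 101, 80.3 and 85.5 CPM in the mutants, with mutant replicate 1 highest and the rest overlapping. Its log2 fold change was 0.12 (95% interval -0.09 to 0.33), with 0.016 without mutant replicate 1 and 0.19 without mutant replicate 2. Grin2d, known from diencephalon and midbrain, was at 44.3, 42.8 and 52.4 CPM in the controls and 57.1, 48.4 and 55.5 CPM in the mutants. The highest control lay above the lowest mutant library. The log2 fold change was 0.21 ± 0.10 (SE, 95% interval 0.0015 to 0.41), with an unadjusted p of 0.0485 and an adjusted p of 0.763 in edgeR's test. The estimate was 0.16 without mutant replicate 1 and 0.15 without control replicate 2. Without control replicate 3 it was 0.3 (unadjusted p = 0.00872 and adjusted p = 0.461, edgeR). The 7 genes listed as midbrain markers summed to 59.4 ± 5.13 CPM in the controls and 58.4 ± 2.31 CPM in the mutants (SD, n = 3 each). This sum was carried by En2 and Otx2, with control means of 31.5 and 13.4 CPM. Whether En2 and Otx2 mark midbrain alone in these brains was not tested. Of the 6 listed markers that could be tested, 3 had positive and 3 negative log2 fold changes. Pax7, at 1.08 CPM in the controls and 1.87 CPM in the mutants, was higher in every mutant library (0.79 ± 0.29, SE, unadjusted p = 0.0135 and adjusted p = 0.483, edgeR). The part of midbrain cells in the Grin2d values was not tested.

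The balance of juvenile and mature NMDA subunits within a library differed between the genotypes by less than the spread between brains. The ratio of Grin2b to Grin2a per kb was 2.35, 2.78 and 2.49 in the controls and 2.84, 2.24 and 2.64 in the mutants. Both the highest and the lowest value were in mutant libraries, and the means were 2.54 ± 0.223 and 2.57 ± 0.309 (SD, n = 3 each; log2 difference 0.015, exact permutation p = 0.9). The sum of Grin2b, Grin2d and Grin3a over the sum of Grin2a, Grin2c and Grin3b was 0.615, 0.761 and 0.781 in the controls and 0.792, 0.684 and 0.694 in the mutants (log2 difference 0.014, exact permutation p = 0.9). Control replicate 1 stood lowest and the other values overlapped. Without length correction this log2 difference was -0.01. Most of the mature sum per kb came from Grin2c, the cerebellar subunit. In the controls it stood at 31.7 CPM per kb, against 5.11 for Grin2a and 0.443 for Grin3b. This ratio therefore mainly sets the juvenile subunits against Grin2c. Grin3b is counted as mature in this sum but not in the wider list below.

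Over the wider lists, the 5 genes known as juvenile (Grin2b, Grin2d, Grin3a, Cacng4 and Grm5) had 4 positive and 1 negative log2 fold changes with a median of 0.12. The 4 known as mature (Grin2a, Grin2c, Cacng3 and Cacng8) had 2 of each sign with a median of -0.0082. The difference between the lists was not tested. Mutant replicate 1 was the highest of the 6 libraries for 5 of the 5 juvenile genes and for 1 of the 4 mature genes.

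**Figure D3:**
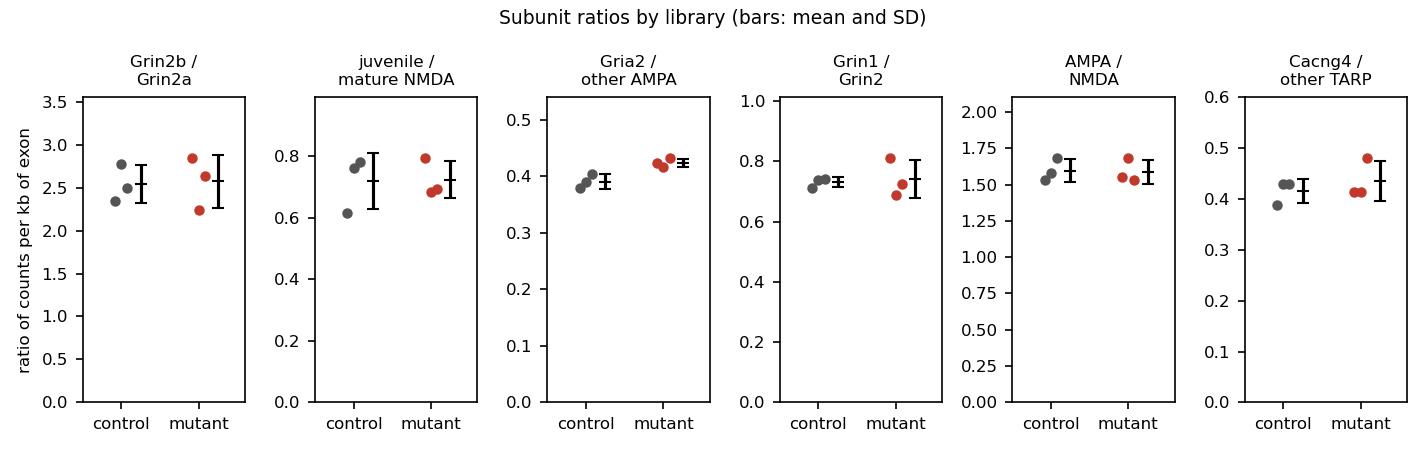
Ratios of subunits within each library, in counts per kb of joined exons, for 3 control and 3 mutant libraries, with points for libraries and bars for mean and SD, each panel from 0. Only in the panel of Gria2 over the other AMPA subunits do the groups not overlap, at 0.379 to 0.404 against 0.417 to 0.432, and in the panels of Grin2b over Grin2a and of juvenile over mature NMDA subunits the mutant and control points overlap.

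In order of level, the NMDA subunits of the controls ran from Grin1 (41.5 ± 1.15 CPM per kb) and Grin2c (31.7 ± 1.64) through Grin2b (13 ± 1.35), Grin2d (6.99 ± 0.769), Grin3a (6.68 ± 0.752) and Grin2a (5.11 ± 0.239) to Grin3b (0.443 ± 0.0953, SD, n = 3 each). Grin2d and Grin3a overlapped in this order, and they changed places when the longest coding transcript set the length. Grin3b, the other glycine-binding GluN3 subunit, was near the limit of detection at 1.17 to 1.8 CPM.

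No kainate receptor gene passed the test. Grik5, which encodes the high-affinity subunit GluK5, was by far the most abundant, at 49.8 ± 0.933 CPM per kb in the controls and 55.5 ± 5.51 in the mutants (SD, n = 3 each), while the other 4 had control means between 4.78 (Grik1) and 9.49 CPM per kb (Grik3). Grik3 and Grik2 were not apart in this order. Grik5 was at 257, 262 and 253 CPM in the controls and 310.1, 255 and 296 CPM in the mutants, and 2 of the mutant libraries were above the controls (log2 fold change 0.16, 95% interval -0.026 to 0.34, unadjusted p = 0.0875 and adjusted p = 0.854, edgeR). The other 4 log2 fold changes ran from -0.047 (Grik3) to 0.14 (Grik4). The delta receptor gene Grid1, whose product organises synapses rather than binding glutamate, had a log2 fold change of 0.044.

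Among the metabotropic receptors, Grm4, a presynaptic group III receptor abundant in cerebellar granule cells, had the highest control mean at 28.7 ± 2.25 CPM per kb, and Grm8 the lowest at 1.4 ± 0.215 (SD, n = 3 each). Grm5, the group I receptor, was highest in mutant replicate 1 and had a log2 fold change of 0.082. Grm3, a group II receptor found on astrocytes as well as neurons, was at 59.2, 59.4 and 64.0 CPM in the controls and 69.5, 62.1 and 72.6 CPM in the mutants. The library of mutant replicate 2 lay inside the control range, and the log2 fold change was 0.16 (95% interval -0.016 to 0.34, unadjusted p = 0.0718 and adjusted p = 0.807, edgeR). All 3 group III receptors had negative log2 fold changes, of -0.058 (Grm4), -0.028 (Grm7) and -0.23 (Grm8). Grm8, the largest of these, was at 11.8, 13.5 and 16.1 CPM in the controls and 13.8, 11.9 and 9.81 CPM in the mutants. Only mutant replicate 3 lay below all controls, and the estimate (± 0.15, SE, 95% interval -0.54 to 0.077, adjusted p = 0.897, edgeR) was -0.11 without it and -0.1 without control replicate 3, but -0.35 without mutant replicate 1 (unadjusted p = 0.0268 and adjusted p = 0.443, edgeR) and -0.33 without control replicate 1. Grm2 had a log2 fold change of -0.033.

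Of the 4 TARP genes, Cacng2 had the largest estimate of all 32 genes and Cacng4 the next after Grin2d, and neither passed the test. Cacng2, which encodes stargazin, the main TARP of the cerebellum, was at 285, 251 and 269 CPM in the controls and 376, 287 and 284 CPM in the mutants. Mutant replicate 1 stood far above the rest and the other two mutant libraries lay beside the highest control (log2 fold change 0.23 ± 0.10, SE, 95% interval 0.017 to 0.45, unadjusted p = 0.0365 and adjusted p = 0.698, edgeR). Without mutant replicate 1 the estimate was 0.09 with an unadjusted p of 0.277 in edgeR's test. It was 0.3 without mutant replicate 2 (unadjusted p = 0.0211 and adjusted p = 0.506, edgeR). Leaving out mutant replicate 3 also gave 0.3 (unadjusted p = 0.0145 and adjusted p = 0.79, edgeR).

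Cacng4, which encodes the juvenile TARP gamma-4, was at 128, 133 and 134 CPM in the controls and 166, 131 and 153 CPM in the mutants. Mutant replicates 1 and 3 lay above the controls and replicate 2 among them (0.19 ± 0.088, SE, 95% interval 0.0042 to 0.38, unadjusted p = 0.0455 and adjusted p = 0.752, edgeR). Without mutant replicate 1 the estimate was 0.11 with an unadjusted p of 0.191 in edgeR's test. Without mutant replicate 2 it was 0.28 (unadjusted p = 0.00583 and adjusted p = 0.296, edgeR). Set against the other 3 TARP genes of the same library, Cacng4 gave ratios of 0.388, 0.429 and 0.429 in the controls and 0.413, 0.413 and 0.48 in the mutants (log2 difference 0.068, exact permutation p = 0.6). Cacng8 and Cacng3, TARPs known from hippocampus and cortex, had log2 fold changes of -0.079 and 0.045, and for Cacng8 the mutants held both extremes, with 60.6 CPM in replicate 1 and 44.0 and 45.8 CPM in the other two, around controls at 52.2 to 53.7 CPM.

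Cnih2, a cornichon that binds AMPA receptors, had the highest level per length of all 32 genes, at 132 ± 11.7 CPM per kb in the controls and 139 ± 2.92 in the mutants (SD, n = 3 each). Its log2 fold change was 0.075, and those of the related Cnih3 and of Shisa9, another AMPA receptor partner, were -0.014 and -0.029. Neto1 and Neto2, the kainate receptor partners, had 0.075 and -0.016, and Neto2 was the more abundant at 19.1 ± 1.7 against 4.61 ± 0.144 CPM per kb (SD, n = 3 each).

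The library of mutant replicate 1 stood above the others across these genes. Mutant replicate 1 was the highest of the 6 libraries for 17 of the 32 genes (53.1%), as against 21.6% of all genes tested, and it lay above the control mean for 28 of them. Control replicate 1 was the lowest library for 12 genes (37.5%, against 17.8% of all genes tested). The median deviation of the 32 genes from the control mean was 0.11 in mutant replicate 1 and -0.012 and -0.0031 in mutant replicates 2 and 3, while the controls ran from -0.062 to 0.046 (log2). Without mutant replicate 1 the median log2 fold change of the 32 genes was -0.0056 in place of 0.055. In that library the neuron markers summed to 2630.2 CPM, within the control range. Within this sum Syt1 was at its highest of the 6 libraries (889.8 CPM) and Snap25 at its lowest (536 CPM). The astrocyte markers summed to 5527 CPM, the highest of the 6 (controls 4574 to 5156 CPM). The part of cell composition in this pattern was not tested.

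**Figure D4:**
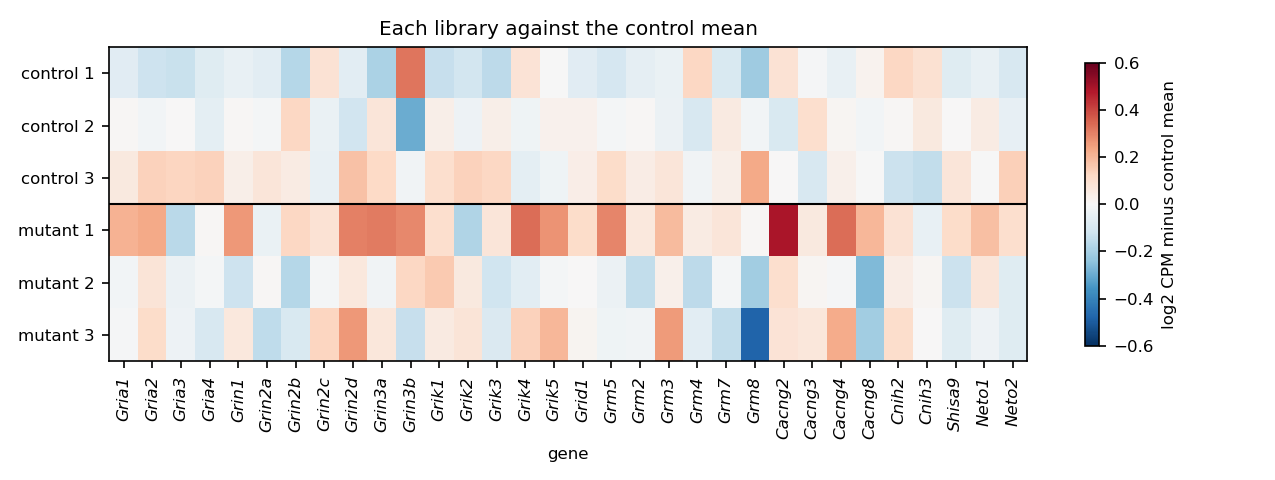
Deviation of each library (rows) from the control mean for each of the 32 genes (columns), in log2 CPM, with red above and blue below. Mutant replicate 1 is red for most genes and deepest for Cacng2, while mutant replicates 2 and 3 show both colours.

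The rest of the glutamate synapse was read from a list of 40 transporters, enzymes of the glutamate cycle, scaffolds and further auxiliary genes. Of these, 0 passed an adjusted p of 0.05 in edgeR's test, 4 had an unadjusted p under 0.05 (10%, against 6.51% of all genes tested), all with higher values in the mutant, and the median log2 fold change was 0.017. The groups did not overlap for 6 of the 40 genes with higher and 1 with lower values in the mutant, against 6.23% and 5.42% of all genes tested. The smallest p belonged to Grip1, a scaffold that binds GluA2 and GluA3, at 29.1, 32.8 and 30.6 CPM in the controls and 42.5, 35.6 and 37.2 CPM in the mutants. Every mutant library was above every control (log2 fold change 0.32 ± 0.10, SE, unadjusted p = 0.00416 and adjusted p = 0.269, edgeR). Next came the postsynaptic scaffold genes Dlgap1 (0.24, adjusted p = 0.478, edgeR) and Shank3 (0.21, adjusted p = 0.664, edgeR).

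The structure of the genes was read from the annotation. All 32 are protein-coding genes with between 4 and 21 exons, and they lie on 18 chromosomes. Of the 32, 0 are single-exon genes, against 323 of the 14506 protein-coding genes tested. Single-exon genes are thus rare among the tested genes too, and their absence from 32 genes does not set the list apart. From first to last base the 32 genes span a median of 156 kb, from 5.65 kb for Cnih2 to 922 kb for Grm7. The median of the tested protein-coding genes was 25.8 kb.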

How the data were processed

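Polyadenylated RNA of 6 whole brains was sequenced with 1 library per brain. The deposited values are raw counts per Ensembl gene, which the authors made by trimming single reads of 50 bases with Trim Galore 0.5.0, removing ribosomal, mitochondrial, phiX and adapter reads with Bowtie2 2.3.4.1, aligning with STAR to GRCm38 and counting with featureCounts of Subread 1.6.2. The strand setting is not given in the sources used here, and antisense exons overlap some genes (1307 bases of Grin1 and 1059 of Grin3b). Symbols and exons were taken from GENCODE M21.

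Genotype was tested on all 6 libraries with edgeR 4.0.16 in R 4.3.3 (quasi-likelihood F test, filterByExpr, TMM), with Benjamini-Hochberg adjustment over the 16731 genes tested. CPM uses effective library sizes. Subunit ratios within a library were set against genotype on the log2 scale, with exact two-sided permutation of the 6 libraries. The edgeR fit was run on simulated counts drawn independently for each gene and library, and the permutation test on constructed values. As alternatives, the fit was repeated with DESeq2 1.42.0, with limma-voom (limma 3.58.1), with RLE size factors, other filters, each library left out, the replicate number as a block, and other gene lengths. Members, lists and tests were chosen with earlier results of these data known. Per-library values are printed for Gria1 to Gria4, Grin1, Grin2a to Grin2d, Grin3a, Cacng4, genes with an unadjusted p under 0.05, and both genes at the ends of the range of log2 fold changes. Of the other synapse genes, the 3 with the smallest p are named. Other genes given per library (Grik5, Grm3, Cacng8), Adarb1 and the midbrain markers named were chosen after their values were seen.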

Additional observations from a re-analysis of the deposited data

How the results depend on the processing

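Under each of 12 alternatives to the fit, 0 of the 32 genes and 0 of the 40 other synapse genes passed an adjusted p of 0.05. With all libraries kept, 0 of the 32 genes changed sign. Without length correction, the log2 difference of juvenile to mature NMDA subunits was -0.01 and that of AMPA to NMDA subunits 0.041. Both versions of a ratio use the same counts, and dropping the length changes only the weight of each gene in the sums.

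Leaving out 1 library at a time gave 0 to 6 genes with an unadjusted p under 0.05. The log2 differences then ran from -0.06 to 0.11 for Grin2b over Grin2a, -0.1 to 0.077 for juvenile over mature NMDA subunits, -0.048 to 0.07 for Grin1 over GluN2 genes, -0.048 to 0.032 for AMPA over NMDA subunits and -0.0042 to 0.1 for Cacng4 over the other TARP genes. Of the log2 fold changes, 16 changed sign in some of these fits. They ran from -0.013 to 0.1 for Gria1, -0.076 to 0.037 for Gria4, -0.03 to 0.16 for Grin1, -0.14 to 0.016 for Grin2b, -0.061 to 0.24 for Grin3b, -0.069 to 0.064 for Grik2, -0.12 to 0.019 for Grik3 and -0.034 to 0.14 for Grm5. They ran from -0.084 to 0.021 for Grm2, -0.11 to 0.0047 for Grm4, -0.08 to 0.029 for Grm7, -0.00011 to 0.1 for Cacng3, -0.24 to 0.0055 for Cacng8, -0.084 to 0.031 for Cnih3, -0.1 to 0.019 for Shisa9 and -0.078 to 0.061 for Neto2. The other 16 kept their sign, with ranges of 0.077 to 0.21 for Gria2, -0.14 to -0.0088 for Gria3, -0.1 to -0.017 for Grin2a, 0.036 to 0.11 for Grin2c, 0.15 to 0.3 for Grin2d, 0.016 to 0.19 for Grin3a, 0.034 to 0.16 for Grik1, 0.04 to 0.24 for Grik4 and 0.1 to 0.23 for Grik5. For Grid1 the range was 0.0095 to 0.067, for Grm3 0.11 to 0.22, for Grm8 -0.35 to -0.1, for Cacng2 0.089 to 0.3, for Cacng4 0.11 to 0.28, for Cnih2 0.014 to 0.14 and for Neto1 0.021 to 0.13.

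The study describes control and mutant brains as littermates, but the sample titles do not say which brains shared a litter. The correlations of same-numbered deviations were 0.104, -0.0467 and 0.0804, which gave no sign that the replicate number pairs the brains. With 3 brains per group these values cannot show whether litter pairs exist. With the replicate number as a block, 0 genes passed an adjusted p of 0.05, 3 had an unadjusted p under 0.05 and the median log2 fold change was 0.054. Replicates differed by more than sampling noise, the chi-square per degree of freedom being 3.42 to 12.3 over the pairs. Grin3b, with 16 to 27 counts per library, had the widest interval of the 32 genes, reaching 0.61 to either side on the log2 scale. Next came Grm8, with 135 to 238 counts per library and 0.31 to either side.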
